A study of Saccharomyces cerevisiae with 16 samples.

Results

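Footprints of unselected 40S and 80S complexes around start codons were compared across the whole map of 5′ end position by footprint length. The members were the 6 of the series' 16 libraries whose maps were analysed here: unselected 40S 1-1, 1-2 and 1-3, and unselected 80S 1-1, 1-2 and 1-3. Each map holds 8991 entries, one for each 5′ end from −80 to +30 and each of 81 lengths, from 18 to 98 nt. Position 0 is the first base of the start codon, and the 3′ end of an entry is its 5′ end plus its length minus 1. The maps are sums over genes, so the part of any single gene cannot be seen, and no gene or sequence is named.

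All 6 libraries came from Saccharomyces cerevisiae, budding yeast, in cultures of 1 litre of YPD, a rich medium, at 30 °C, harvested at an OD600 of about 0.7 to 0.8. Whole cultures were treated for 1 h on ice with 0.8% formaldehyde, lysed, and digested with RNase I, after which 40S and 80S complexes were separated. None of the 6 went through immunoprecipitation, although every strain carried a FLAG tag on an initiation factor. Both 1-1 libraries came from SY182, tagged on eIF3a (TIF32), both 1-2 libraries from H25, tagged on eIF3c (NIP1), and both 1-3 libraries from SY194, tagged on eIF2β (SUI3). eIF3 is the scaffold of the initiation complex and eIF2 brings the initiator tRNA. The strain is therefore shared between a 40S library and the 80S library of the same number, and it differs among the 3 libraries of a group. RNA was selected at about 18 to 85 nt. The libraries of a group, being of different strains, came from separate cultures. No strain has a second library in a group, so strain, culture and technical variation cannot be told apart. The p-values here reflect the variation among these libraries from all of these sources.

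In the scanning model of initiation, a small ribosomal subunit with its factors binds near the cap, moves along the leader, and stops where the initiator tRNA pairs with the start codon. The large subunit then joins, and the complete ribosome, the 80S, moves into the coding region by codon steps. Formaldehyde fixes these complexes on the mRNA, and the RNase leaves only the stretch that each one covers, so the position and length of a footprint show where its edges lay.

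The 40S maps held 2318150, 1268340 and 1451485 counts in libraries 1-1, 1-2 and 1-3, and the 80S maps held 744969, 495746 and 795541. Values for 3 libraries are given in that order throughout. All entries of 86 to 98 nt together held 36 to 61 counts in a 40S library and 43 to 49 in an 80S library, so the map is empty for practical purposes beyond the selected sizes. Libraries of a group differed in length. Footprints of 18 to 23 nt made up 16.7%, 26.3% and 18.8% of the 40S maps, with library 1-2 highest, and 22.6%, 17.1% and 17.2% of the 80S maps, with library 1-1 highest. Lengths of 50 to 98 nt made up 5.77%, 3.51% and 8.69% of the 40S maps, against 1.41%, 1.8% and 1.19% of the 80S maps.

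Footprints that held the start codon dominated the 40S maps, and the 80S maps were split between these and footprints wholly in the coding region. Footprints that held all 3 bases of the start codon made up 83.4%, 81.6% and 80.6% of 40S counts, against 52.2%, 55.7% and 53.6% of 80S counts. This class is not limited to complexes placed at the start codon. Within it, 5′ ends from −9 to 0, downstream of the main ones at −13 and −12, made up 13.8% ± 2.05 in 40S and 47.3% ± 1.84 in 80S (SD, n = 3 each). Footprints that lay wholly in the coding region, with a 5′ end past base 0, made up 6.04%, 6.66% and 7.25% in 40S and 42.7%, 38.3% and 40.6% in 80S. Leader footprints, with a 3′ end before the start codon, made up 10.3%, 11.5% and 11.8% in 40S and 4.91%, 5.78% and 5.64% in 80S. The groups did not overlap in any of these shares.

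As means, the start codon share was 81.9% ± 1.38 in 40S and 53.8% ± 1.74 in 80S (SD, n = 3 each), the coding share 6.65% ± 0.603 and 40.5% ± 2.21, and the leader share 11.2% ± 0.770 and 5.44% ± 0.466. Every two-sided exact permutation test of these shares gave p = 0.1, the smallest that 3 libraries against 3 allow, and 0.2 after Benjamini-Hochberg adjustment over the 16 values tested this way, so none could pass 0.05. The 95% Wilson intervals reached at most 0.14 percentage points to either side, and they cover counting error only. Shares are of the map, so a higher share of one region lowers the others, and they say nothing of the number of 40S or 80S complexes in the cell. The map also ends at a 5′ end of +30, and a wider window would change the coding share.

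**Figure D1:**
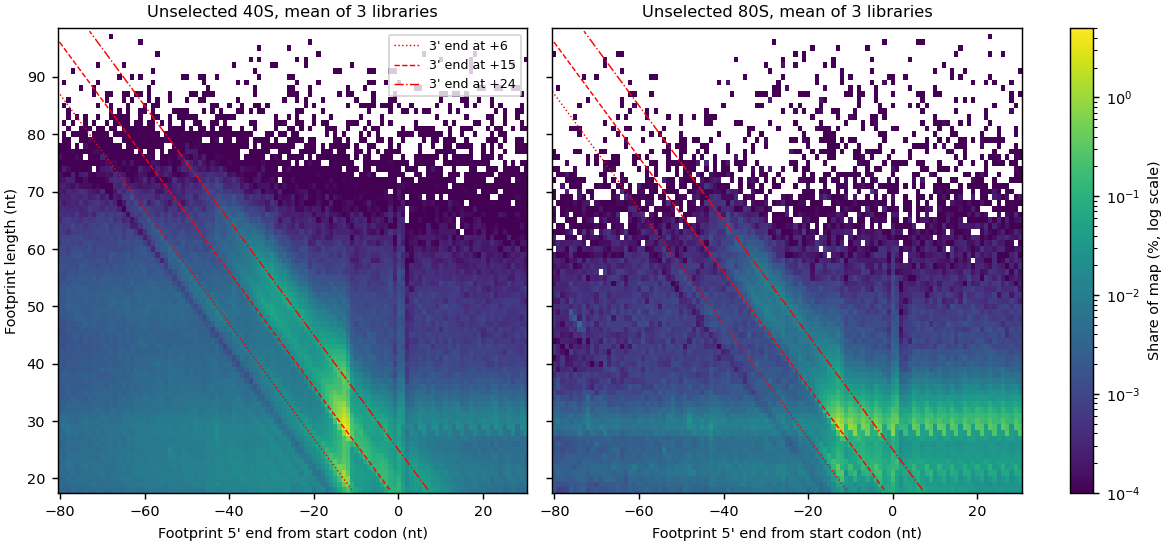
Mean share of the map, in % on a log colour scale, for each 5′ end (horizontal axis, nt from the first base of the start codon) and footprint length (vertical axis, nt), for the 3 libraries of 40S (left) and of 80S (right). Red lines join entries with a 3′ end at +6, +15 and +24, and entries with no count are white. The 40S map is concentrated along these diagonals upstream of the start codon, and the 80S map has a horizontal band near 29 nt that repeats every 3 nt into the coding region.

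Tested entry by entry on the scale of the map total, the 40S map was higher along the leader and along extended start codon footprints. It was lower at most tested entries of the coding region. Of 8991 entries, 4014 had enough counts to be tested, and edgeR's quasi-likelihood test called 2466 of them higher in 40S (61.4% of those tested) and 846 lower (21.1%), with a threshold of 0.05 on the adjusted p. By share of the map, every 40S library lay above every 80S library at 2417 entries (60.2%) and below at 851 (21.2%). Among leader entries 1379 of 1692 tested rose and 7 fell, and all 7 had lengths of 27 to 33 nt. Among entries that hold the start codon 1051 of 1455 rose and 162 fell. In the coding region 0 of 803 rose and 677 fell in edgeR's test, with 0 higher at an unadjusted p under 0.05 and 0 higher in DESeq2, although scaling to the counts outside the start peak gave 3 higher. The 126 coding entries not called included 89 of the 316 tested at 34 to 49 nt and all 7 tested at 50 nt or more. Entries with low counts were not tested. Of the 2430 coding entries 803 were tested. Of the 4416 entries that hold the start codon 1455 were tested, and of the 3408 among them with 50 nt or more, 457.

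These counts depend on the scale. Scaled to the map total, as above, 74.5% of called entries were higher in 40S. TMM scaling, which sets the typical entry to no change, gave 1065 higher and 1266 lower (45.7% of calls higher), and DESeq2 with its own size factors gave 986 and 1181 (45.5%). TMM moved the median log2 fold of all entries by −1.09 and DESeq2 by −1.01. By region, the median log2 fold of 40S over 80S was 1.42 for leader entries on the map total and 0.34 under TMM. It was 1.93 and 0.84 for start codon entries, and −2.30 and −3.38 for coding entries. Of leader entries, TMM called 369 higher and 172 lower, and DESeq2 313 higher and 131 lower. Of start codon entries, TMM called 693 higher and 301 lower, and DESeq2 671 and 270. A fold in the paragraphs that follow is relative to the map total, except for 3′ ends tested over the whole map, whose total is given there.

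**Figure D2:**
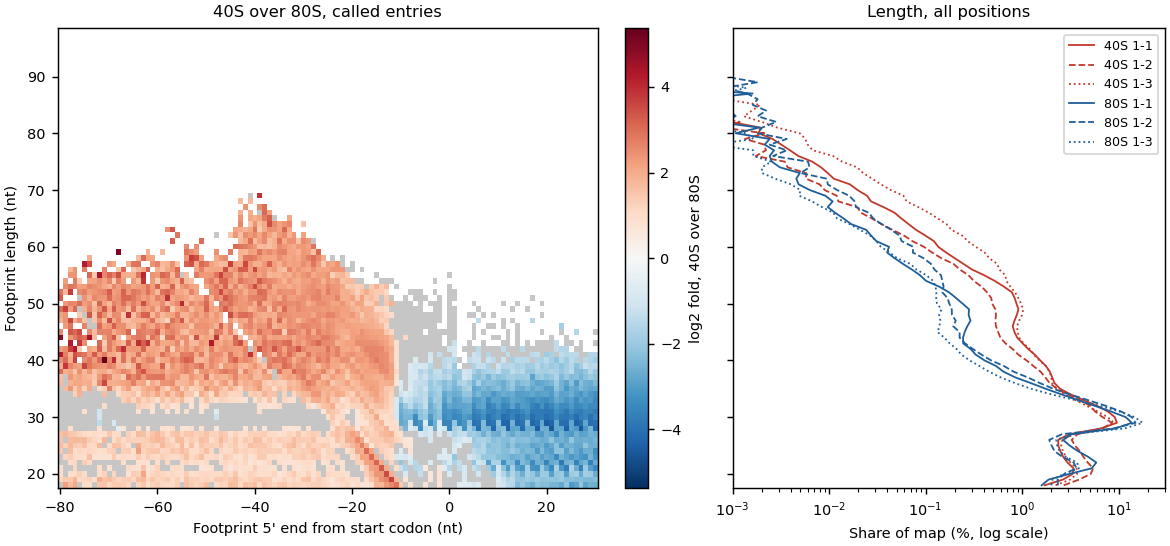
Left, the log2 fold of 40S over 80S for each called entry (edgeR, adjusted p under 0.05), red where higher in 40S and blue where lower, with entries tested but not called in grey and untested ones in white. Right, the share of the map at each length, in % on a log scale, in the 3 libraries of 40S (red) and 80S (blue). Entries are mostly red upstream of a 5′ end of −10 and mostly blue downstream, with exceptions on both sides, and a narrow red diagonal ends at a 3′ end of +6; under TMM or DESeq2 scaling the median log2 fold is lower by 1.09 or 1.01, and 336 or 263 called entries change sign.

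Summed over lengths, 5′ ends changed sides at a single point. All 70 positions from −80 to −11 rose in 40S (63.1% of all positions, each of which was tested) and all 41 from −10 to +30 fell (36.9%). Under DESeq2 scaling 10 of the 70 upstream positions had the opposite sign, 3 of them called, among them −11 (log2 fold 0.28 on the map total and −0.79 under DESeq2).

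The highest position was −13 in both groups. It held 19.3%, 19.3% and 17.4% of 40S counts, against 6.82%, 8.02% and 7.46% of 80S counts, with no overlap (log2 fold 1.33, SE 0.09, edgeR adjusted p = 4.30e-38). Position −12 was next, with 15.3%, 15.5% and 14.4% in 40S and 6.004%, 6.57% and 6.95% in 80S. Just 2 bases further, position −10 held 1.28%, 1.49% and 1.18% in 40S and 2.91%, 3.73% and 3.48% in 80S. Both groups dropped just downstream of −12, to 2.37% ± 0.213 at −11 in 40S and 1.95% ± 0.115 in 80S (SD, n = 3 each). From −11 to −10 the share fell further in each 40S library and rose in each 80S library. No 80S library was below 1.05% at any position from −9 to +1. At −2, however, the groups lay close, with 1.04% in 40S library 1-3 and 1.05% in 80S library 1-3.

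Among rises, the largest folds lay at −25, −17, −16, −15 and −27, upstream of the peak. Position −25 held 0.771%, 0.588% and 0.884% in 40S and 0.199%, 0.221% and 0.181% in 80S (log2 fold 1.90, SE 0.18, edgeR adjusted p = 5.65e-23). The largest falls lay at +21, +27, +24, +20 and +26, in the coding region. Position +21 held 0.134%, 0.152% and 0.166% in 40S and 1.59%, 1.48% and 1.70% in 80S (log2 fold −3.40, SE 0.17, edgeR adjusted p = 2.05e-62).

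Around the start peak the 2 maps had different shapes: the most frequent 40S footprint kept its 3′ end, and the most frequent 80S footprint stayed near one length. At each of the 15 positions from −17 to −3, the most frequent 40S footprint ended at +15 in all 3 libraries, and its length fell with the position from 33 nt to 19 nt. In all 3 80S libraries this held only for the 5 positions from −16 to −12. From −11 to +11 the most frequent 80S length was 30, 29 and 28 nt in turn, at all 23 positions and in all 3 libraries. The 3′ end of the leading 80S footprint accordingly moved by 3 nt at a time, from +18 at −11, −10 and −9, to +21 at −8, −7 and −6, and to +24 at −5, −4 and −3. A second fixed edge appeared in 40S: at the 5 positions from +3 to +7 its most frequent footprint ended at +24 in all 3 libraries, with lengths of 22 nt to 18 nt. The shortest length measured is 18 nt, so at 5′ ends from −1 on a footprint that ends at +15 would be too short to be seen. At −2, where it is 18 nt long, it was the most frequent one in 40S libraries 1-1 and 1-3 but not in 1-2.

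Both shapes can be given as shares. Of footprints with a 5′ end from −9 to −3, those that ended at +15 or +16 made up 24.05%, 26.6% and 23.6% in 40S, against 10.2%, 7.50% and 8.38% in 80S. Those of 28 or 29 nt made up 12.6%, 10.3% and 11.98% in 40S, against 26.1%, 28.03% and 33.4% in 80S. The groups did not overlap in either share, which were computed after the maps had been seen and were not tested. At −9 alone, 28 or 29 nt made up 18.2% ± 1.98 in 40S and 43.1% ± 4.18 in 80S (SD, n = 3 each).

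Start codon footprints were next divided by their 5′ end. The peak at −14 to −10 held 57.01%, 58.3% and 53.9% of start codon footprints in 40S, against 39.5%, 42.1% and 41.9% in 80S (two-sided exact permutation p = 0.1, adjusted 0.2). Downstream of it, 5′ ends from −9 to 0 held 12.6%, 16.2% and 12.7% in 40S and 48.6%, 45.2% and 48.1% in 80S. Their most frequent 3′ end was +15 in each 40S library and +24 in each 80S library. In 40S the ends just past +15 were close to it. Means were 11.1% of this class at +15, 10.2% at +16, 10.1% at +17 and 9.575% at +18. Upstream of the peak, −19 to −15 held 16.3% ± 0.359 in 40S and 6.75% ± 0.793 in 80S, and −35 to −20 held 11.6% ± 2.96 and 4.24% ± 0.530 (SD, n = 3 each).

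The peak itself contained a short group of 3′ ends near +7 and a middle group near +15 in both maps, and in 40S a long group near +24. Most footprints belonged to the middle group. In it +15 was the most frequent end in all 6 libraries, with 20.3%, 18.99% and 21.1% of the 40S peak and 19.5%, 20.5% and 24.5% of the 80S peak, which overlapped. The class from +14 to +18 held 57.4% ± 4.40 of the 40S peak and 60.8% ± 6.34 of the 80S peak (SD, n = 3 each; two-sided exact permutation p = 0.5), a difference of −3.43 percentage points, smaller than the spread. Single ends within and beside it differed. An end at +14 held 4.24%, 4.78% and 5.397% in 40S and 3.45%, 2.38% and 3.29% in 80S. An end at +18 held 8.92%, 7.26% and 6.58% in 40S, against 10.03%, 12.6% and 11.9% in 80S, and +19 held 4.79% ± 0.412 and 7.37% ± 0.903 (SD, n = 3 each). At +20 and +21 every 40S library was likewise below every 80S library. A further small maximum lay at +11 in each 80S library, with 3.44%, 1.58% and 1.87%, barely above +10 in library 1-3 (1.85%). No 40S library had a maximum there, with 1.03%, 1.83% and 1.34%. These single ends were not tested. The classes from +10 to +13 and from +19 to +30, and that past +30, also overlapped between the groups (exact permutation p = 0.6, 0.8 and 1).

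The short group had its edge 1 or 2 bases further upstream in 40S. Between +2 and +12, the most frequent 3′ end was +7, +7 and +6 in 40S and +8 in each 80S library. A 3′ end at +6 held 3.51%, 6.02% and 4.96% of the 40S peak, against 1.17%, 0.742% and 0.822% of the 80S peak. An end at +8 held 1.804%, 3.11% and 1.94% in 40S and 6.29%, 3.05% and 3.19% in 80S. At +6 the groups were far apart, and at +8 they overlapped through 40S library 1-2. The class from +6 to +9, which holds both ends, overlapped as a whole, with 11.1%, 18.9% and 13.1% in 40S and 14.2%, 7.21% and 7.86% in 80S (exact permutation p = 0.3). Ends up to +5 held 2.197% ± 0.521 in 40S and 0.846% ± 0.306 in 80S without overlap (exact permutation p = 0.1, adjusted over the 6 classes 0.6).

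Entry by entry, these short footprints were the largest rises of the map. The 10 largest included 7 with a 3′ end at +6, with 5′ ends at every position from −17 to −11. The first was the 19 nt footprint at −12, with 12800, 11485 and 10690 counts in 40S and 499, 235 and 454 in 80S, which is 0.552%, 0.906% and 0.737% of the 40S maps and 0.067%, 0.047% and 0.057% of the 80S maps. Its log2 fold was 3.68 (SE 0.26, edgeR adjusted p = 5.63e-21). The 20 nt footprint at −13 followed with 16199, 15652 and 12510 counts in 40S and 725, 335 and 634 in 80S (log2 fold 3.51, SE 0.25, edgeR adjusted p = 1.99e-20). Of the other 3, the 19 nt footprint at −13 ended at +5 (log2 fold 2.65), and the 40 nt footprint at −15 and the 41 nt footprint at −16 ended at +24 (2.78 and 2.65).

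The long group also differed in its edge. Between +22 and +30, the most frequent 3′ end of the peak was +24 in each 40S library and +22 in each 80S library. There was a maximum at +24 in 40S, where it held 1.09, 1.01 and 1.31 times the counts of +21. In 80S the counts declined across this range, with 0.456, 0.399 and 0.309 times the counts of +21. As a share of the peak, +24 held 2.28%, 1.94% and 2.52% in 40S and 1.21%, 1.54% and 0.807% in 80S, without overlap.

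**Figure D3:**
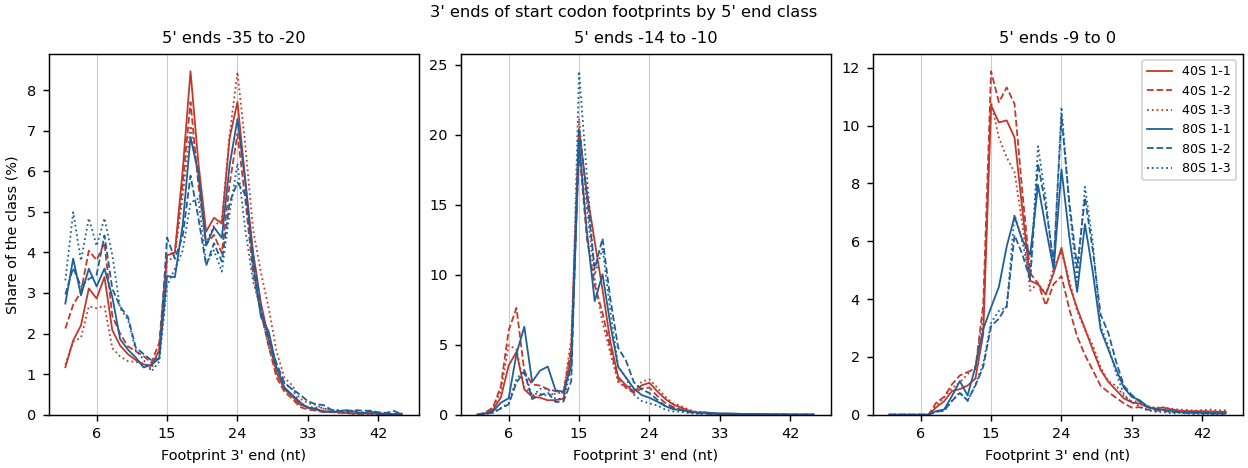
Share of footprints, in % of the class, by 3′ end (nt from the first base of the start codon) for start codon footprints with 5′ ends from −35 to −20 (left), −14 to −10 (middle) and −9 to 0 (right), one line per library, 40S in red and 80S in blue. Grey lines mark +6, +15 and +24. The peak class has the same main edge at +15 in all 6 libraries, and in the right panel 40S is highest at +15 while 80S has maxima at +18, +21, +24 and +27.

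Over the whole map, 3′ ends could be tested from −16 to +47 with footprints of 18 to 65 nt, for which the window loses no length. Shares and folds of these 3′ ends are relative to the total of the footprints that enter this test, not to the map total. Of 64 positions, 32 rose in 40S (50% of those tested) and 23 fell (35.9%). The largest rise was again +6, with 2.80%, 4.44% and 3.55% of 40S counts and 0.544%, 0.421% and 0.429% of 80S counts (log2 fold 2.95, SE 0.19, edgeR adjusted p = 5.64e-38). It was followed by +5, +4, +7 and +3. An end at +15 was the most frequent in both groups, with 13.9%, 13.3% and 13.5% in 40S and 6.70%, 7.55% and 8.36% in 80S (log2 fold 0.85). All 21 positions from +27 to +47 fell, the largest at +42 with 0.171%, 0.178% and 0.210% in 40S and 1.77%, 1.72% and 1.88% in 80S (log2 fold −3.26, SE 0.19, edgeR adjusted p = 8.74e-45).

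Both groups shared a low point inside the start codon. Of the 3′ ends from −16 to +30, +1 was the least frequent in each of the 6 libraries. As a share of the footprints that enter the 3′ end test, it held 0.132%, 0.164% and 0.144% in 40S and 0.077%, 0.115% and 0.095% in 80S. Just before the start codon, at −1, the 40S libraries held 0.319%, 0.364% and 0.388% of that total and the 80S libraries 0.153%, 0.254% and 0.218%. The low point appears in the maps as a dark diagonal that crosses all lengths. Its cause was not tested.

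The entries with the highest shares were nearly the same in the 2 groups. The 29 nt footprint at −13, which ends at +15, was first in both, with 4.11%, 3.75% and 3.82% of the 40S maps and 1.71%, 2.12% and 2.36% of the 80S maps. It was higher in 40S on the map total (log2 fold 0.91, SE 0.19, edgeR adjusted p = 2.75e-05), but its log2 fold was −0.18 under TMM and −0.094 under DESeq2, neither called. The 28 nt footprint at −12 and those of 30 nt at −13 and 29 nt at −12 came next in both groups, and their folds changed sign under TMM and DESeq2 in the same way. The fifth differed. In 40S it was the 31 nt footprint at −13. In 80S it was the 29 nt footprint at −10, which ends at +18, with 0.155%, 0.141% and 0.122% in 40S and 0.714%, 0.997% and 1.06% in 80S (log2 fold −2.73, SE 0.24, edgeR adjusted p = 1.35e-16).

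Footprints that reached far upstream of the start codon were more frequent in 40S. Those with a 5′ end at −20 or before made up 13.8%, 9.57% and 17.3% of start codon footprints in 40S, against 4.84%, 5.47% and 4.18% in 80S (two-sided exact permutation p = 0.1, adjusted 0.2). The groups did not overlap, and 40S library 1-2, which was richest in short lengths, was the lowest of its group. Of the entries with 5′ ends from −35 to −20, 470 of 488 tested rose and 0 fell in edgeR's test on the map total, with 0 lower at an unadjusted p under 0.05. TMM gave 357 higher and 7 lower, and DESeq2 353 higher and 4 lower. Of those from −80 to −36, 282 of 286 rose and 0 fell on the map total, with 0 lower at an unadjusted p under 0.05. TMM gave 188 higher and 0 lower, and DESeq2 165 higher and 0 lower.

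Where these extended footprints ended differed from the peak, and the main maxima lay at nearly the same ends in both groups. The shares of some ends differed between the groups. Of the ends up to +30, those at +2, +3 and +8 were lower in 40S without overlap. They held 1.51%, 2.11% and 2.05% of the class on average in 40S, against 3.00%, 4.15% and 3.32% in 80S. Ends at +14, +16, +17, +18 and +20 were higher in 40S without overlap. These single ends were not tested. With 5′ ends from −35 to −20 there was a maximum at +24 in all 6 libraries and another at +18 in every library except 80S 1-3, where it was at +19, with a low stretch near +13. No 40S library had a maximum at +15, and 80S libraries 1-1 and 1-2 had a small one. An end at +18 held 8.46%, 7.71% and 7.12% of this class in 40S and 6.84%, 5.89% and 5.23% in 80S, which did not overlap. An end at +24 held 7.71%, 6.92% and 8.45% in 40S and 7.29%, 5.72% and 6.20% in 80S, which did. At +15 the values were 3.93%, 3.94% and 3.75% in 40S and 3.42%, 4.37% and 3.17% in 80S. Still further upstream, from −80 to −36, the most frequent 3′ end was +5 in all 6 libraries, with 10.6%, 10.4% and 9.46% of that class in 40S and 9.50%, 6.96% and 9.22% in 80S. The longest lengths are capped by the size selection, which a footprint from −80 to +24 would exceed.

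By length alone, the 40S map was shifted to long footprints and the 80S map to those of about 29 nt. Of 66 lengths tested, 32 rose in 40S (48.5%), namely 19 and 20 nt and all from 36 to 65 nt, and 4 fell (6.06%), namely 28 to 31 nt. By share, the 3 libraries of 40S lay above those of 80S at 35 lengths (53%). With the replicate number, which marks the strain, as a block, 20 rose and 2 fell. Leaving out 80S library 1-1 gave 22 rises, and leaving out 40S library 1-3 gave 23 rises and 2 falls. Scaled by TMM, 21 rose and 14 fell, and 19, 20 and 36 nt changed sign, whereas DESeq2 called 2 rises and 15 falls. The largest rise was at 52 nt, with 0.783%, 0.433% and 0.844% of counts in 40S and 0.174%, 0.149% and 0.129% in 80S (log2 fold 2.19, SE 0.46, edgeR adjusted p = 2.15e-05). The largest fall was at 29 nt, the most frequent length of both groups, with 9.61%, 8.57% and 8.95% in 40S and 13.7%, 15% and 17.7% in 80S (log2 fold −0.78, SE 0.18, edgeR adjusted p = 1.02e-04).

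In each region, footprints of 27 to 33 nt made up less of the 40S counts than of the 80S counts, and those of 50 nt or more made up more, whereas mean lengths overlapped between the groups in the leader and at the start codon. Leader footprints of 27 to 33 nt made up 28.1%, 23.4% and 24.7% of the leader in 40S, against 36.6%, 39.3% and 43.5% in 80S. Those of 34 to 49 nt made up 22.5%, 15.3% and 21.1% in 40S, against 10.4%, 11.5% and 8.49% in 80S. In the leader, the most frequent length was 20, 22 and 19 nt in 40S and 22, 29 and 29 nt in 80S, so a maximum at 29 nt stood out in 80S leaders only in libraries 1-2 and 1-3, although a maximum near 29 nt was present in library 1-1 as well.

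In the coding region, short footprints and the longest ones both made up more of the 40S counts, and those of 27 to 33 nt made up less. Lengths of 18 to 23 nt made up 38.2%, 46.3% and 38.5% of coding footprints in 40S, against 23.4%, 21.7% and 20.2% in 80S, and 27 to 33 nt made up 36.6%, 30.0% and 34.6% in 40S, against 58.8%, 62.7% and 67.2% in 80S. Those of 34 to 49 nt overlapped, with 11.9%, 8.93% and 12.2% in 40S and 8.22%, 9.17% and 5.56% in 80S. Those of 50 to 98 nt made up 2.76%, 1.61% and 3.70% in 40S, against 0.446%, 0.517% and 0.249% in 80S, without overlap. The mean length of coding footprints was 27.5, 25.97 and 27.7 nt in 40S and 28.1, 28.4 and 28.1 nt in 80S (two-sided exact permutation p = 0.1, adjusted 0.2). At the start codon it was 32.2, 30.02 and 32.97 nt in 40S and 29.2, 30.4 and 29.4 nt in 80S, which overlapped (exact permutation p = 0.2, adjusted 0.291). In the leader it was 30.5, 27.6 and 30.9 nt in 40S and 27.5, 27.9 and 27.4 nt in 80S, which also overlapped (exact permutation p = 0.2, adjusted 0.291).

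**Figure D4:**
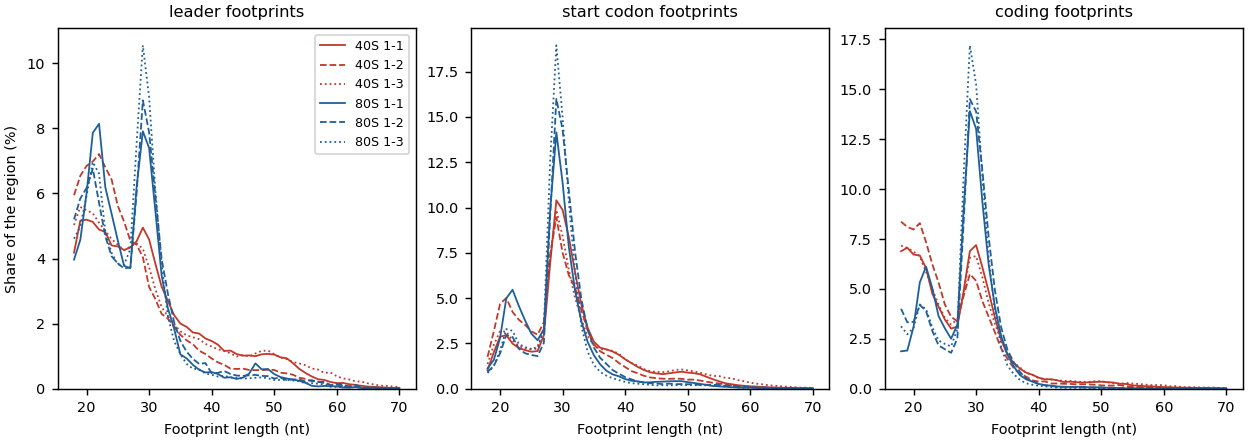
Share of footprints by length (nt), in % of the region, for leader (left), start codon (middle) and coding footprints (right), one line per library, 40S in red and 80S in blue. The maximum near 29 nt is higher in 80S in every region, 40S has a longer tail to the right in all 3 regions, and in the coding region 40S also lies above 80S at 18 to 21 nt.

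Leader density increased toward the start codon in both groups. Per position, 5′ ends from −80 to −61 held 0.158% ± 0.021 of the map in 40S and 0.070% ± 0.001 in 80S. Those from −60 to −41 held 0.266% ± 0.030 and 0.116% ± 0.010, and those from −40 to −21 held 0.658% ± 0.112 and 0.210% ± 0.028 (SD, n = 3 each). Extended start codon footprints enter the last of these windows. A limit of 40 nt does not take all of them out. At −21 the 40 nt footprint, which ends at +18, was the most frequent one in 40S libraries 1-1 and 1-2. Among footprints of 18 to 40 nt, the log2 ratio of the farthest to the nearest window was −1.49, −1.47 and −1.44 in 40S and −0.85, −1.45 and −1.22 in 80S. These overlapped (exact permutation p = 0.2, adjusted 0.291), so no difference in slope was detected with 3 libraries a group. Genes with a leader shorter than a window contribute nothing to it, and leader lengths were not used here.

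Past the start peak, the 80S maps held a ladder with a step of 1 codon. The 28 nt footprint, followed from −12 in steps of 3 nt, held 3.36% ± 0.051 of the map at −12 in 40S and 1.73% ± 0.292 in 80S. At −9, the first step after the peak, it held 0.145% ± 0.019 in 40S and 0.812% ± 0.141 in 80S. At +6 it held 0.020% ± 0.001 in 40S and 0.338% ± 0.070 in 80S, and at +30 0.015% ± 0.001 in 40S and 0.263% ± 0.069 in 80S (SD, n = 3 each).

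Relative to the median of the steps from +3 to +30, the start peak of the 28 nt footprint was 230, 232 and 205 times as high in 40S, against 5.26, 6.47 and 5.93 times in 80S. A smaller maximum occurred in 80S at 0, where the footprint begins with the start codon, with 2.53, 2.56 and 2.62 times that median. The 40S ratio was 4.25, 4.43 and 4.19, but 0 was no maximum of the 40S steps. Their share fell from 0.102% ± 0.008 at −3 to 0.065% ± 0.004 at 0 and 0.017% ± 0.002 at +3 (SD, n = 3). The lowest step of the 80S ladder followed at +3, with 0.166%, 0.140% and 0.184% of the map, against 0.015%, 0.017% and 0.019% in 40S.

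The 10 largest falls of the map were all 28 or 29 nt footprints with 5′ ends from +11 to +27. The first was 28 nt at +27, with 288, 172 and 221 counts in 40S and 2589, 1234 and 2674 in 80S (log2 fold −4.501, SE 0.28, edgeR adjusted p = 2.25e-22). It was followed by 28 nt at +21 (−4.5) and 29 nt at +20 (−4.45), and the tenth was 29 nt at +11 (−4.22). All 210 coding entries of 27 to 33 nt fell, with a median log2 fold of −3.22.

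The codon step was sharper in 80S. Of 28 nt footprints with 5′ ends from −9 to +29, 53.04%, 53.5% and 51.6% in 40S lay in the frame of −9, against 76.5%, 78.96% and 79.6% in 80S. At 29 nt the 80S footprints were divided between 2 frames, with 43.7% ± 0.761 in the frame of −9, 49.1% ± 0.476 one base before it, and 7.18% ± 0.983 in the remaining one. In 40S the same 3 frames held 43.1% ± 0.740, 34.6% ± 0.623 and 22.2% ± 0.498 (SD, n = 3 each). Over 27 to 30 nt together the frame of −9 held 43.2% ± 1.00 in 40S and 47.3% ± 1.00 in 80S (two-sided exact permutation p = 0.1, adjusted 0.2), a difference of −4.08 percentage points. With 28 nt alone the difference was −25.7 percentage points. The frame of −9 was also the most used one in 40S, although from +12 to +30 the mean 40S share of the 28 nt footprint was 0.044 to 0.057 times that of 80S. Steps that still hold the start codon weigh heavily in this 40S frame share. At −9, −6, −3 and 0 the mean share of the 28 nt footprint was 0.050% to 0.145% in 40S, against 0.0126% to 0.0204% from +3 to +27. In 80S it was 0.496% to 0.812% and 0.163% to 0.338%.

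Short footprints with 5′ ends in the same range, −9 to +29, were less divided by frame in 40S than in 80S. At 20 nt, the frame of −9 held 38.3% ± 0.515 in 40S and 51.4% ± 3.26 in 80S, and at 21 nt 33.7% ± 1.51 in 40S and 46.04% ± 3.35 in 80S (SD, n = 3 each). At 21 nt the 3 frames of 40S held 30.5% to 35.8%, close to equal parts, and the frame of −9 was not the highest. The range includes the fixed 40S edge at +15, where the most frequent footprint was 21 nt at −5 and 20 nt at −4. Neither 5′ end is in the frame of −9, and the part of this edge in the shares was not separated.

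**Figure D5:**
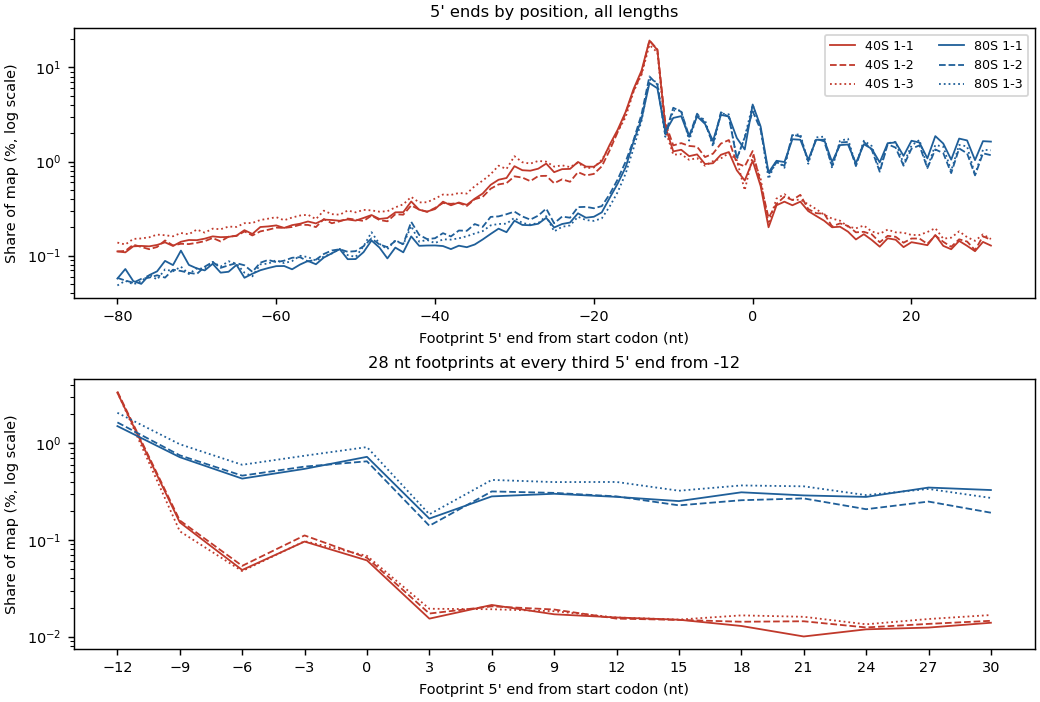
Share of the map, in % on a log scale, by 5′ end (nt from the first base of the start codon). The upper panel sums all lengths, and the lower one shows 28 nt footprints in steps of 3 nt from −12, with one line per library, 40S in red and 80S in blue. The lines cross between −11 and −10 (under DESeq2 scaling, 10 positions further upstream also had the opposite sign), and from +6 on the mean 28 nt share of a step is 0.0126% to 0.0204% in 40S and 0.259% to 0.338% in 80S.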

How the data were processed

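The deposited maps hold footprint counts, whole numbers that the authors did not normalize, for each 5′ end and length. They carry no header: positions follow from the deposited tables' names, and lengths were set at 18 to 98 nt. This was checked against the authors' labelled start codon tables, which give mean fractions over genes: the most frequent 5′ end (−13) and 3′ end (+15) were the same in both for all 3 libraries of 40S. Those fractions were used for nothing else. Build R64 and the tools TopHat2 2.1.0, Bowtie2 2.2.6, Bowtie 1.2.2 and CASAVA 1.8 are listed, without roles, in the submitters' processing notes. How multiply mapping reads, duplicates and overlapping genes were treated is not given in these sources.

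Libraries were grouped by title. Entries, 5′ ends, lengths and 3′ ends were tested in R 4.3.3 with limma 3.58.1 and edgeR 4.0.16. The settings were filterByExpr with a minimum count of 10, scaling to the map total, the quasi-likelihood test, and Benjamini-Hochberg adjustment with a threshold of 0.05. For 3′ ends, scaling was to the total of the footprints that enter that test. Standard errors were obtained from each log2 fold and the F statistic. The scripts were tested on simulated data, with 200 of 4128 entries changed. The test called 42% of 2-fold changes and 95% of 4-fold changes, with 8 false calls. An entry that was not called is thus not shown to be unchanged. For shares and mean lengths, 16 in all, exact permutation tests were two-sided (Python 3.11.15 with pandas 2.3.3, SciPy 1.17.1 and NumPy 2.4.6; figures in matplotlib 3.10.9), whose smallest p is 0.1. Values with no test are descriptions. Alternatives were TMM, DESeq2 1.42.0, scaling to counts outside 5′ ends −14 to −10, no filter, a replicate block, each library left out, and other length and position limits.

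The members, windows and classes were chosen with earlier results of these data known. Entries are named by rule: among called entries whose libraries do not overlap, with a mean share of at least 0.1% in the higher group, the 10 largest rises and falls (5 for positions, 3′ ends and lengths), and the 5 highest shares per group. Entries on the 3 nt ladder, single 3′ ends and runs of positions were chosen after their values were seen. Equal numbers mark the same strain. Deviations from group means correlated at 0.0103, −0.191 and −0.104 within numbers 1-1, 1-2 and 1-3 over 4014 entries, and at −0.0953 to 0.181 between other numbers.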

Additional observations from a re-analysis of the deposited data

How the results depend on the processing

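The scale set most counts of calls. Entries higher in 40S numbered 1065 under TMM and 986 under DESeq2, against 2466 on the map total. DESeq2 called 42 higher positions, against 70. Higher lengths numbered 32 on the map total, 21 under TMM, 2 under DESeq2 and 52 when scaled to counts outside the start peak; lower lengths numbered 4, 14, 15 and 0. With the strain as a replicate block, 20 lengths were higher and 2 lower, and no other count moved by over 1.5 times: entries gave 2381 higher and 806 lower. Leaving out each library gave 22 to 39 higher and 2 to 4 lower lengths. Under TMM and DESeq2 the log2 fold of 29 nt at −13 was −0.18 and −0.094, of 28 nt at −12 −0.15 and −0.060, of 30 nt at −13 −0.17 and −0.082, and of 29 nt at −12 −0.16 and −0.071. Leaving out each library moved the 40S minus 80S difference of 3′ end classes that overlapped across 0: from −0.136 to 0.127 percentage points past +30, from −2.12 to 0.456 for +10 to +13, and from −2.83 to 0.676 for +19 to +30, which was 2.30 with the peak set to −13 to −11. Among single named items 602 of 627 alternatives had the same direction and call, 17 lost the call and 8 changed sign; among share tests 133 of 138 had the same direction. The cause of these changes was not tested. With 3 libraries a group, no share test could pass 0.05, and map totals of 495746 to 2318150 limit entries beyond about 65 nt.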

Other observations

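Some values belong to no comparison above. The 5′ end at the first base of the start codon stood above its neighbours in all 6 libraries. It held 1.02%, 1.29% and 1.14% of the map in 40S libraries 1-1, 1-2 and 1-3, and 4.04%, 3.41% and 4.02% in 80S libraries 1-1, 1-2 and 1-3. Just downstream, position +2 held 0.200%, 0.253% and 0.218% in 40S and 0.765%, 0.729% and 0.655% in 80S. Of 5′ ends from −14 to +10, position +2 was the lowest in every library except 40S 1-2, where +10 was lower. In 40S library 1-1 they were level, with 4645 counts at +2 and 4646 at +10.

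At 3′ end +8 within the peak, 80S library 1-1 (6.29%) stood apart from 80S libraries 1-2 and 1-3 (3.05% and 3.19%). The same library had the highest share of footprints of 18 to 23 nt in its group. Without it, the 40S minus 80S difference of the class from +6 to +9 was 6.82 percentage points, against 4.62 with it, and without 40S library 1-2 it was 2.34.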
